A study of Homo sapiens with 12 samples.

Results

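The comparison described here is between Cal27 cells that were exposed to an inhibitor of focal adhesion kinase (FAK) when they were replated and cells that were replated without it, after the same conditioning with lysophosphatidic acid (LPA). Its members are the 6 libraries with those labels, 3 LPA-to-FAKi and 3 LPA-to-soft, of 12 in the series, and 15437 of the 25382 gene symbols in the table passed a filter on low counts and were tested. Cal27 is an established epithelial line from a human squamous cell carcinoma of the tongue, and the labels describe all cells as wild type. In both groups the cells were grown for 5 days with LPA on collagen-coated gels of 0.48 kPa, then moved to new gels of 0.48 kPa for 1 day in medium with serum. The LPA-to-FAKi cells had the FAK inhibitor during that last day and the LPA-to-soft cells did not. The remaining 6 libraries are soft-to-soft (0.48 kPa throughout, no LPA) and stiff-to-soft (20 kPa for 5 days, then 0.48 kPa for 1 day), with 3 libraries each. The labels do not name the inhibitor or give its dose or that of LPA. Nor do they say whether replicates were separate cultures. The p-values therefore rest on the spread among these libraries alone, and that spread may be technical.

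FAK, encoded by PTK2, is a tyrosine kinase that is recruited to clustered integrins, where it phosphorylates itself, binds Src family kinases and passes signals to paxillin, p130Cas and the ERK pathway. Inhibitors of its kinase domain block the enzyme and leave the gene in place, so the level of PTK2 RNA does not show whether the enzyme was blocked. LPA is a lipid in serum that binds G protein-coupled receptors and activates actomyosin contraction. In squamous carcinoma cells, integrin adhesion, contractility and growth factor signalling are tied to the balance between basal and differentiated keratinocyte programs.

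The 6 libraries held between 76083175 and 122311183 counts, with 16259 to 17003 symbols detected in each, and mitochondrial genes took 4.31% to 7.10% of the counts. Levels below are CPM, counts scaled to the size of the library, with TMM factors. The 14 epithelial markers summed to 8512 to 10480 CPM in LPA-to-soft and 8338 to 9577 CPM in LPA-to-FAKi. Fibroblast markers (12 genes) summed to 15.1 to 33.6 CPM and 16.9 to 25.3 CPM, with POSTN at 0. Leukocyte markers (12 genes) summed to 14.9 to 22.6 CPM and 21.4 to 50.3 CPM with 5 of the 12 at 0, CD3D, CD3E, MS4A1 and NKG7 among them, and endothelial markers (12 genes) to 17.2 to 25.4 CPM and 8.87 to 18.5 CPM with KDR and CLDN5 at 0. The leukocyte sum moved with CD68, a lysosomal membrane protein that is also made outside macrophages. CD68 stood at 11.7, 16.9 and 9.49 CPM in LPA-to-soft 1, 2 and 3 and at 41.9, 29.4 and 15 CPM in LPA-to-FAKi 1, 2 and 3.

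PTK2 itself stood at 49.2, 51.4 and 53.7 CPM in LPA-to-soft replicates 1, 2 and 3 and at 44.8, 46.4 and 50.1 CPM in LPA-to-FAKi. Its level was lower with the inhibitor in every pair, but the groups overlapped, and the log2 fold change of -0.13 ± 0.06 (SE, n = 3 against 3) was not called by edgeR (adjusted p = 0.234). PTK2B, the gene of the related kinase PYK2, stood at 46.7, 38.0 and 44.3 CPM without and 58.3, 42.8 and 41.9 CPM with the inhibitor, and its groups overlapped too.

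The question of the comparison is what FAK activity at replating contributes to the expression state that LPA-conditioned cells carry onto a soft gel. Replicate number held 58.8% of the sum of squares over genes in the 6 libraries, the FAK inhibitor 18.0% and the rest 23.2%, and so the inhibitor was tested within replicate numbers (a model of 4 conditions and replicate number over all 12 libraries). The shares were not divided by their degrees of freedom, of which the rest has more than the inhibitor. The 18.0% therefore does not show an effect above the remaining spread. With edgeR's quasi-likelihood test, 0 of 15437 genes (0%) passed an adjusted p of 0.05. The smallest adjusted p, 0.0752, was shared by 96 genes, and 714 genes lay under 0.10, 380 of them higher and 334 lower with the inhibitor. At an unadjusted p under 0.05 there were 3439 genes (1768 higher, 1671 lower), where 5% of the genes tested is 772. Other tools with the same model made calls. The voom method of limma called 37 genes, 21 higher (0.136% of genes tested) and 16 lower (0.104%), and DESeq2 called 1231, 640 higher (4.91%) and 591 lower (4.53%) of the 13042 genes it gave an adjusted p. Of the 37 voom genes, 35 were also called by DESeq2, and their adjusted p in edgeR ran from 0.0752 to 0.111. The lowest adjusted p of any gene ran from 4.27e-07 (DESeq2) to 0.839 (edgeR without replicate number) over the alternatives. EdgeR called 62 genes without LPA-to-FAKi 3 and 202 without soft-to-soft 1 and 2, 35 of them among the 37 of voom. Below, a gene is said to rise or fall only with the tool that called it, and all other values are given as levels or as edgeR log2 fold changes ± SE. The median log2 fold change over all genes was -0.004, and 49.2% of genes were above 0. The 3 pairs had the same sign in 45.1% of all genes tested, so agreement of the pairs is common and does not set a gene apart.

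Of the 33 lists shown other than those of cell type markers, the one farthest from 0 was that of interferon-stimulated genes, whose products restrict viruses or sense their nucleic acids. In cells these genes are driven by a complex with IRF9, which binds an interferon-stimulated response element upstream of the gene. With the FAK inhibitor 60 of the 63 genes on the list had a negative log2 fold change, and 29 fell (46.0%) and 0 rose by DESeq2, against 4.53% of all genes that fell. List percentages here and below are of the members that DESeq2 gave an adjusted p, and are to be read against the 4.91% of all genes that rose and the 4.53% that fell. The median was -0.45, beside -0.004 over all genes. Voom called IFIT1, IFIT2, IFI44L and EPSTI1. The positive members were IFI30, ISG20 and PARP12, none of them called by edgeR, voom or DESeq2.

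The stretches below are from the upstream regions of 6 of these genes, shown because the list is defined by its response to a factor that binds there. The 6 were picked by hand and each holds a match, so they do not show how common a match is in the list. That share is given after the stretches. They are RefSeq promoter sequences of build GRCh38.p14, the 150 bases that end just before the annotated start of the gene, on the gene's strand and 5′ to 3′. Capitals mark matches to a pattern for the element, GAAA and GAAA with 2 free bases between them, or its reverse complement.
IFIT1, chr10:89392473-89392622, plus strand: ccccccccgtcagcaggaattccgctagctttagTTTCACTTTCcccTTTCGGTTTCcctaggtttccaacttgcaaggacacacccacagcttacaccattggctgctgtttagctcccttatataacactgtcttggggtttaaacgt
IFIT3, chr10:89327847-89327996, plus strand: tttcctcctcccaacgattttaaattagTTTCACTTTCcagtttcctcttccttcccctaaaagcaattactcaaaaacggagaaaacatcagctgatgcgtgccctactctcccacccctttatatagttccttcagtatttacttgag
IFI44L, chr1:78620298-78620447, plus strand: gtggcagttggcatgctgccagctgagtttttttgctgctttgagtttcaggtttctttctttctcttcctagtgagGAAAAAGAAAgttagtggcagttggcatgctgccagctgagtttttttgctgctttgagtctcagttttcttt
IFI6, chr1:27672193-27672342, minus strand: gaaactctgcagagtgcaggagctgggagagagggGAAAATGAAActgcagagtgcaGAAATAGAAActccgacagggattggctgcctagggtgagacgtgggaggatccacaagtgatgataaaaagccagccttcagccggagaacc
EPSTI1, chr13:42992242-42992391, minus strand: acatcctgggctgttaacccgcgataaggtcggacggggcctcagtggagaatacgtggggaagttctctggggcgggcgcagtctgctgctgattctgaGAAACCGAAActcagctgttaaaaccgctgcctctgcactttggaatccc
IFITM1, chr11:313890-314039, plus strand: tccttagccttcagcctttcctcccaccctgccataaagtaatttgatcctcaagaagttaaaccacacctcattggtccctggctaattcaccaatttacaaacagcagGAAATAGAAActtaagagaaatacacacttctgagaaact

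In IFIT1 the matches began 116 and 103 bases before the start, and in IFI6 115 and 93 bases before it. RefSeq promoters were matched for 47 of the 63 listed genes and 11880 of the genes tested. The pattern, on either strand in the 250 bases before the start, was found in 25 of those 47 (53.2%), in 2.49% of the promoters of genes tested and in 3.07% of all 27305 promoters in the table. The median log2 fold change was -0.44 for listed genes with a match and -0.31 for those without. A match is a description of the sequence and not a measured binding site.

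IFIT1, an RNA-binding antiviral protein, stood at 45.2, 37.9 and 166 CPM in LPA-to-soft replicates 1, 2 and 3 and at 14.7, 26.3 and 73.6 CPM in LPA-to-FAKi. Replicate 3 was the highest library of both groups, so the groups overlapped while every pair was lower with the inhibitor. The log2 fold change was -1.07 ± 0.19 (SE), 47.5% of the level without the inhibitor. IFI44L, which the list holds as a type I interferon target, was at 29.1, 8.20 and 92.8 CPM without and 6.39, 4.81 and 36.2 CPM with the inhibitor, a log2 fold change of -1.39 ± 0.25. EPSTI1 was at 14.9, 7.57 and 34.7 CPM without and 4.75, 4.37 and 15.9 CPM with it, and IFIT2, a partner of IFIT1, at 42.8, 54.1 and 113 CPM and 17.0, 34.2 and 66.9 CPM. In these genes too, all 3 pairs moved down, by the least in pair 2.

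A component of the interferon signal itself was lower by a smaller amount. IRF9, a DNA-binding subunit of the factor, stood at 27.9, 14.8 and 63.1 CPM without and 16.3, 11.9 and 41.1 CPM with the inhibitor (log2 fold change -0.57 ± 0.11, fell by DESeq2). The other members that fell by DESeq2 included TRIM22 at -1.18 ± 0.25, IFI6 at -1.05 ± 0.22, IFIT3 at -0.73 ± 0.17 and IFITM1 at -0.72 ± 0.18. The list median was -0.55, -0.16 and -0.54 in pairs 1, 2 and 3, and it was -0.42, again with 60 of 63 genes negative, when log2 ratios were corrected for the length and GC content of transcripts. Beside this stands the spread among replicates: 52 of the 63 genes, MX1 and ISG15 among them, were highest in replicate 3 of each of the 4 conditions.

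**Figure D1:**
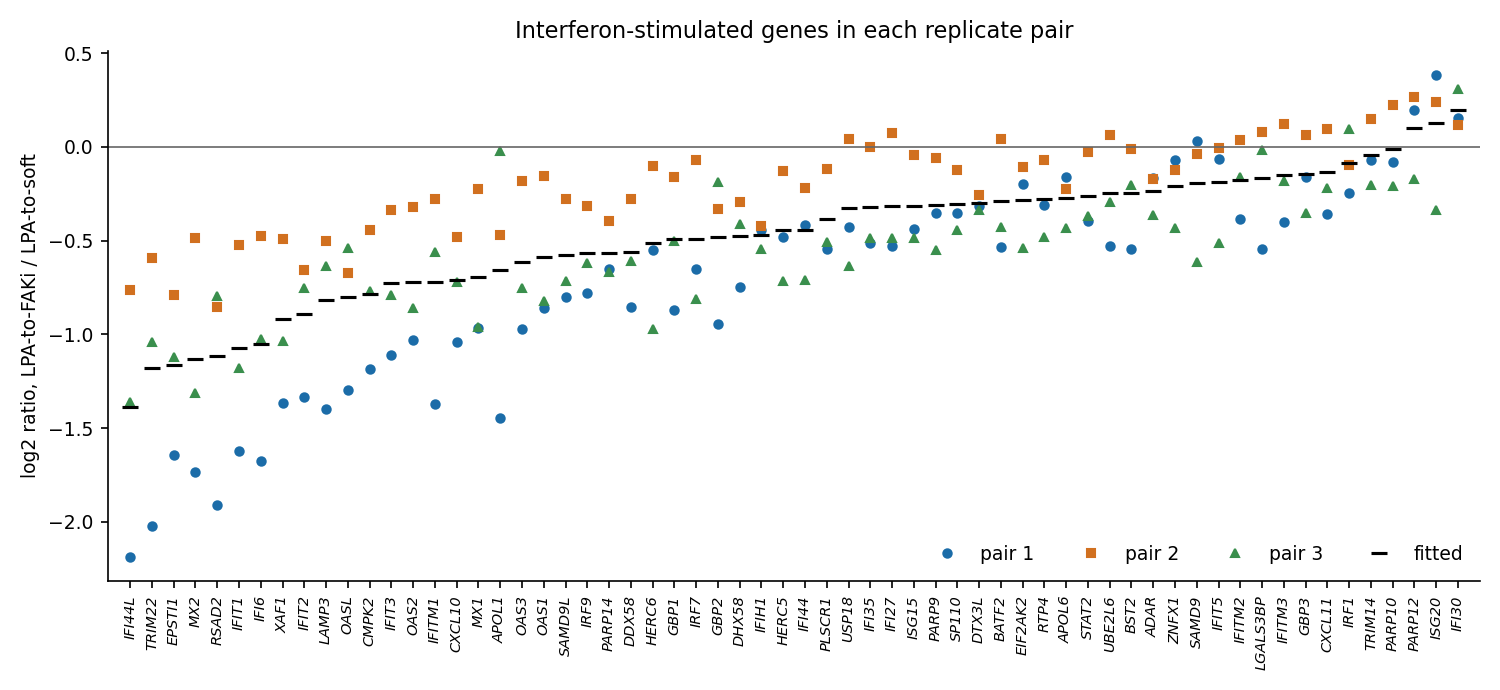
Log2 ratio of LPA-to-FAKi to LPA-to-soft (vertical axis) for 62 of the 63 interferon-stimulated genes (horizontal axis), in order of the fitted value. Points are the 3 replicate pairs and bars the edgeR fit. Pair 2 lies nearest 0 for most genes, and the fitted values of IFI30, ISG20 and PARP12 are the ones above 0.

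Genes of xenobiotic metabolism and the oxidant response stood on the other side. CYP1A1, a cytochrome P450 that is the classic target of the aryl hydrocarbon receptor, rose by voom and DESeq2. It stood at 9.04, 23.3 and 4.21 CPM in LPA-to-soft replicates 1, 2 and 3 and at 30.1, 39.2 and 23.3 CPM in LPA-to-FAKi. The lowest library with the inhibitor equalled the highest without it, and the fold change was 3.08 (log2 1.62 ± 0.25). AHR, the receptor itself, went the other way, from 486, 222 and 440 CPM to 182, 129 and 351 CPM (-0.82 ± 0.16, fell by DESeq2). Of 14 aryl hydrocarbon receptor genes tested, 10 were positive with a median of 0.21, and 6 rose (46.2%, against 4.91% of all genes) and 1, AHR, fell (7.69%, against 4.53%) by DESeq2. CYP1B1, a related P450, was among the 6 at 28.4, 48.0 and 27.5 CPM without and 40.3, 54.8 and 54.4 CPM with the inhibitor, and so was ALDH1A3, a retinaldehyde dehydrogenase, at 0.42 ± 0.10.

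The targets of NRF2, the factor that induces detoxifying and redox genes, had 25 of 34 members above 0 and a median of 0.18, with pair medians of 0.31, 0.05 and 0.17 and 0.11 without replicate 1. By DESeq2 10 rose (29.4%, against 4.91% of all genes) and 1 fell (2.94%, against 4.53%). AKR1C1, an aldo-keto reductase that acts on steroids and reactive carbonyls, stood at 3.82, 2.38 and 0.718 CPM without and 24.7, 3.98 and 1.89 CPM with the inhibitor (log2 1.71 ± 0.36, rose by voom and DESeq2), and LPA-to-FAKi 1 was far above the other libraries. NQO1, a quinone reductase, was at 50.9, 96.4 and 87.2 CPM without and 90.8, 108 and 97.7 CPM with it (0.39 ± 0.11, rose by DESeq2). FTL, the ferritin light chain, and TXN, thioredoxin, rose by DESeq2 at 0.47 ± 0.11 and 0.35 ± 0.10. The gene that fell was AKR1B10, another aldo-keto reductase, at -1.04 ± 0.32. With the same correction for length and GC content the NRF2 median was 0.12 and that of the aryl hydrocarbon receptor genes 0.25. ALAS1, which catalyses the first step of heme synthesis, is on neither list and rose by voom from 37.5, 43.0 and 62.0 CPM to 51.9, 55.9 and 76.5 CPM (0.39 ± 0.06).

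Among all genes, the smallest p on the higher side belonged to SLC38A5, a transporter that carries glutamine and other small neutral amino acids. It stood at 14.2, 9.70 and 8.01 CPM in LPA-to-soft and at 23.5, 19.1 and 15.9 CPM in LPA-to-FAKi replicates 1, 2 and 3. The groups did not overlap, and the fold change was 1.86 (log2 0.90 ± 0.13). Over all genes, 1753 (11.4%) did not overlap between the groups, 919 of them higher, and of the 37 voom genes 11 did not.

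ADAM8, a membrane metalloprotease that sheds receptors and adhesion molecules, was at 67.5, 130 and 62.7 CPM without and 113, 217 and 85.8 CPM with the inhibitor (0.65 ± 0.10, rose by voom). MGLL, the lipase that cleaves monoacylglycerols, was at 14.6, 12.5 and 5.23 CPM and 26.0, 21.9 and 7.52 CPM (0.73 ± 0.12, rose by voom). SOX15, a transcription factor of stratified epithelia, was at 80.5, 96.8 and 65.0 CPM and 133, 122.3 and 96.4 CPM (0.54 ± 0.09, rose by voom). In all 3 genes every pair was higher with the inhibitor, while the groups overlapped.

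Others that rose by voom were B3GNT3, a glycosyltransferase (0.58 ± 0.09), THBD, the thrombin receptor thrombomodulin (0.31 ± 0.05), and TSR3, which modifies ribosomal RNA (0.37 ± 0.06). IL1R2, a decoy receptor that binds interleukin 1 without signalling, had one of the larger folds: it stood at 6.62, 7.95 and 2.19 CPM without and 27.0, 23.1 and 4.48 CPM with the inhibitor (1.60 ± 0.29, rose by voom). PORCN, which attaches the lipid to Wnt ligands, rose by voom at 0.72 ± 0.13, and MALL, a membrane raft protein, at 1.01 ± 0.19. C9orf169, LRWD1 and PLEKHN1 also rose by voom, at 1.07 ± 0.18, 0.44 ± 0.08 and 0.53 ± 0.09, and MRPL55, a mitochondrial ribosomal protein, stood at 0.42 ± 0.08 and rose by DESeq2. DHRS9, a retinol dehydrogenase, rose by voom (2.08 ± 0.61), with 39.3 CPM in LPA-to-FAKi 1 and at most 3.82 CPM in the other 5 libraries.

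**Figure D2:**
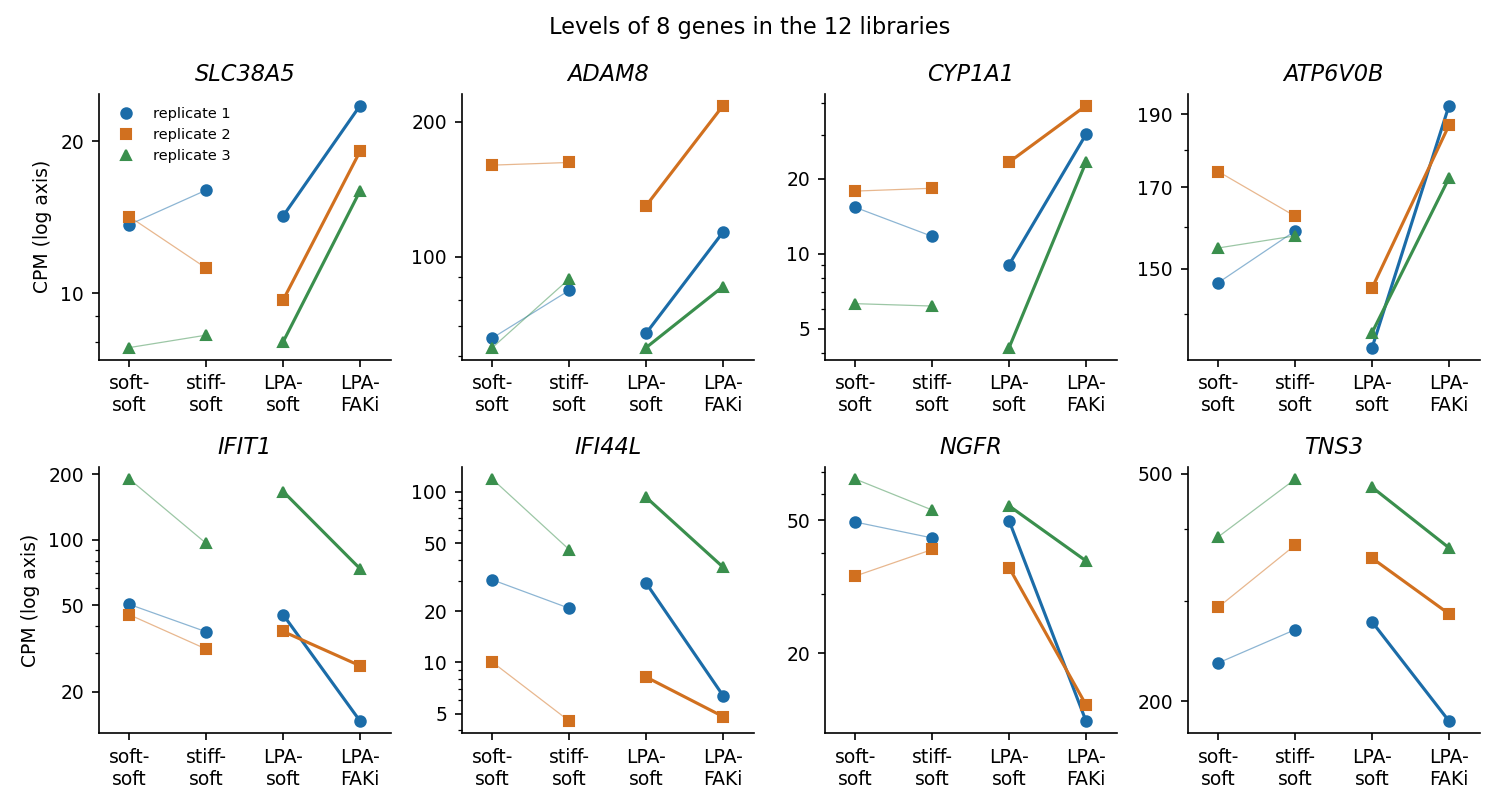
Levels in CPM (vertical log axes) of 8 genes in the 12 libraries, by condition (horizontal axis). Symbols and colours are replicate numbers, and lines join libraries of the same number within the stiff and the FAK inhibitor comparison. SLC38A5, ADAM8, CYP1A1 and ATP6V0B are higher and IFIT1, IFI44L, NGFR and TNS3 lower in LPA-to-FAKi than in the LPA-to-soft library of the same number in 3 of 3 pairs. Over all genes tested, 45.1% have the same sign in the 3 pairs.

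Of the genes that rose by voom, 3 are described together because their products work in the lysosome, a grouping made after their values were seen. MCOLN1 is on the lysosome and autophagy list, and ATP6V0B and SPNS1 are not. ATP6V0B, a subunit of the proton pump that acidifies it, was at 133, 146 and 136 CPM without and 193, 187 and 172 CPM with the inhibitor, with no overlap (0.41 ± 0.06, rose by voom). MCOLN1, its calcium channel TRPML1, was at 20.1, 17.5 and 17.1 CPM and 30.02, 23.2 and 21.4 CPM (0.44 ± 0.08, rose by voom), and SPNS1, which exports lysophospholipids, at 66.2, 64.7 and 58.7 CPM and 89.8, 82.4 and 74.5 CPM (0.38 ± 0.07, rose by voom). Their promoters are shown because each holds an E-box, the 6 bases in capitals, which reads the same on both strands and is the core of the site of TFEB and of other factors of its class.
ATP6V0B, chr1:43974810-43974959, plus strand: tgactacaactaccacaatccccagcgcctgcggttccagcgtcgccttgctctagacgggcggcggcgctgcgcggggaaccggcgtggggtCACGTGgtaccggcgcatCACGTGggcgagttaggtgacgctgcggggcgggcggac
MCOLN1, chr19:7522474-7522623, plus strand: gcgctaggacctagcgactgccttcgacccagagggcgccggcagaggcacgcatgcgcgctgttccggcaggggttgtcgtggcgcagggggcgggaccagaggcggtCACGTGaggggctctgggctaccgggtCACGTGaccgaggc
SPNS1, chr16:28974628-28974777, plus strand: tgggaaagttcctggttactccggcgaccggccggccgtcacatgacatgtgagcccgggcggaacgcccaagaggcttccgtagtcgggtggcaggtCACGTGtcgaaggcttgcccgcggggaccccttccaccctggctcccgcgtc

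These stretches are again the 150 bases before the RefSeq start in GRCh38.p14. An E-box stood in 29.4% of the 34 promoters of the lysosome and autophagy list and in 8.60% of those of all genes tested. Of the 46 tested members of the list, MCOLN1 included, 23 were positive and 23 negative with a median of -0.001. The median was -0.01 for members with an E-box and 0.03 for those without. By DESeq2 3 members rose (6.52%, against 4.91% of all genes), namely MCOLN1, ATG9A of the autophagy machinery and CTSL, the protease cathepsin L, and 3 fell (6.52%, against 4.53%). The ones that fell were LAMP2, a membrane protein of lysosomes (-0.45 ± 0.11), GPNMB, a glycoprotein of lysosomes and melanosomes (-1.23 ± 0.31), and TFEB itself (-0.45 ± 0.12).

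The medians of the adhesion lists stayed near 0. Of 47 genes of FAK and adhesion signalling, 22 were positive and 25 negative with a median of -0.01, and of 37 structural focal adhesion genes 19 were positive and 18 negative with a median of 0.002. By DESeq2 6 structural genes fell (16.2%, against 4.53% of all genes) and 2 rose (5.41%, against 4.91%). Of the signalling genes 3 fell (6.52%) and 2 rose (4.35%). TNS3, tensin 3, an adaptor that joins integrin tails to actin and to signalling proteins, fell by voom. It stood at 275, 356 and 474 CPM in LPA-to-soft and 185, 284 and 371 CPM in LPA-to-FAKi replicates 1, 2 and 3 (-0.42 ± 0.07), lower in each pair with overlapping groups. By DESeq2 the Src family kinase YES1 (-0.25 ± 0.07) and ARHGAP26, a GTPase-activating protein that binds FAK (-0.40 ± 0.11), fell, and GRB7, an adaptor that FAK phosphorylates (0.39 ± 0.12), and HGS, an endosomal sorting protein (0.23 ± 0.07), rose. PXN, paxillin, and BCAR1, p130Cas, both substrates near FAK, stood at 0.28 ± 0.12 and 0.24 ± 0.10 and were not called by edgeR, voom or DESeq2.

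Integrin subunits had 12 of 16 tested members below 0 and a median of -0.10, with pair medians of -0.27, -0.01 and -0.07. The median was -0.001 without replicate 1 and -0.01 without LPA-to-soft 1. The 1 integrin that fell by DESeq2 (7.69%, against 4.53% of all genes) was ITGAV, the alpha V subunit (-0.38 ± 0.12). Of 42 extracellular matrix genes tested out of 49, 28 were negative with a median of -0.17, and 4 fell (10.3%, against 4.53% of all genes) and 0 rose by DESeq2. FN1, fibronectin, the main ligand of several integrins, was at 85.2, 133 and 187 CPM without and 45.4, 90.1 and 155 CPM with the inhibitor (-0.58 ± 0.10, fell by DESeq2). HSPG2, perlecan of the basement membrane, fell by DESeq2 at -0.66 ± 0.19, with 375 and 373 CPM in replicate 3 of the 2 groups and a difference only in the other pairs. The matrix median was -0.40 in pair 1, -0.02 in pair 2 and 0.07 in pair 3, -0.02 without replicate 1, -0.05 without LPA-to-soft 1 and -0.07 without LPA-to-FAKi 1.

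Genes that read out tension were divided too. YAP and TAZ targets, which follow nuclear entry of these coactivators, had 15 of 25 members above 0 with a median of 0.01. By DESeq2 2 of them fell (8.33%, against 4.53% of all genes) and 0 rose. The 2 were CTGF, a matricellular protein, and PTPN14, a YAP inhibitor. CTGF stood at 176, 89.1 and 269 CPM without and 60.1, 58.8 and 231 CPM with the inhibitor (-0.82 ± 0.20). SRF and MRTF targets had 9 of 24 above 0 with a median of -0.06. PPP1R12B, a myosin phosphatase subunit, was at 20.8, 14.4 and 18.8 CPM without and 13.8, 8.78 and 11.7 CPM with the inhibitor, with no overlap (-0.66 ± 0.11, fell by voom). PPP1CB, the catalytic subunit of the same phosphatase, fell by DESeq2 (-0.47 ± 0.12). LPA receptors and enzymes of LPA metabolism had 6 of 11 tested members above 0, and MGLL was the 1 that rose by voom.

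Of the ligands of the EGF receptor, 4 rose with the inhibitor by DESeq2, 36.4% of the 11 genes of the list of EGF receptors and ligands that had an adjusted p, against 4.91% of all genes. EREG, epiregulin, stood at 46.6, 36.4 and 41.9 CPM without and 56.1, 49.4 and 48.4 CPM with it, with no overlap (0.30 ± 0.07), and HBEGF at 113, 60.3 and 62.7 CPM and 141, 79.4 and 78.0 CPM (0.34 ± 0.07). TGFA was at 55.7, 49.8 and 36.6 CPM and 106, 72.9 and 41.0 CPM (0.56 ± 0.12), and AREG, amphiregulin, at 2.34, 1.59 and 1.88 CPM and 4.48, 2.54 and 3.10 CPM (0.78 ± 0.20). Each was higher in 3 of 3 pairs, where 45.1% of all genes had the same sign in the 3 pairs. Over the 13 genes tested in that list, 8 were positive with a median of 0.04, and LRIG1, which destabilizes these receptors, fell by DESeq2 (-0.49 ± 0.15). Of the 23 ERK feedback genes, which ERK signalling induces and which restrain it, 16 were positive with a median of 0.18 and pair medians of 0.20, 0.21 and -0.03. The median was 0.06 without replicate 1 and 0.03 without LPA-to-FAKi 1. Of these genes 1, ETV4, an ETS factor (0.70 ± 0.16), rose by DESeq2 (4.55%, against 4.91% of all genes), and 1, ERRFI1, an inhibitor of the EGF receptor, fell (-0.29 ± 0.07). Immediate early genes, which serum and growth factors induce within minutes, had 29 of 40 members below 0 with a median of -0.15, and EGR3 fell by DESeq2 from 93.0, 8.47 and 71.1 CPM to 26.4, 4.01 and 53.5 CPM (-1.09 ± 0.23). Their median was -0.56 in pair 1, 0.03 in pair 2 and -0.03 in pair 3, and -0.04 without replicate 1.

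Genes of proteolysis and inflammation were mixed. PLAUR, the urokinase receptor, was at 64.2, 78.7 and 75.5 CPM without and 102, 135 and 81.9 CPM with the inhibitor (0.52 ± 0.14, rose by DESeq2), and SERPINB2, an inhibitor of urokinase, rose by DESeq2 at 0.85 ± 0.21. MMP10, stromelysin 2, fell by DESeq2 at -0.81 ± 0.20. The list of matrix proteases and inhibitors had 16 of 28 members below 0 with a median of -0.09. By DESeq2 4 of its members rose (15.4%, against 4.91% of all genes) and 1 fell (3.85%, against 4.53%). CSF2, the cytokine GM-CSF, rose by DESeq2 from 17.6, 36.0 and 16.4 CPM to 30.3, 58.7 and 21.4 CPM (0.64 ± 0.12), while of 46 NF-kB and cytokine genes 33 were below 0 with a median of -0.20. That median was -0.55 in pair 1, -0.05 and -0.04 in pairs 2 and 3, and -0.06 without replicate 1. By DESeq2 4 NF-kB and cytokine genes fell (9.09%, against 4.53% of all genes) and 2 rose (4.55%, against 4.91%).

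Keratinocyte differentiation genes had 43 of 64 tested members above 0 with a median of 0.16, and 10 further members of the list of 74 did not pass the filter. The median was 0.43, 0.12 and -0.01 in pairs 1, 2 and 3, and 0.08 without replicate 1. By DESeq2 4 rose (7.14%, against 4.91% of all genes) and 3 fell (5.36%, against 4.53%). SPRR2D, a small proline-rich protein of the cornified envelope, was at 58.8, 33.4 and 23.8 CPM without and 124, 59.6 and 29.6 CPM with the inhibitor (0.76 ± 0.17, rose by DESeq2). KRT1, the keratin of the first suprabasal layers, was at 45.5, 7.68 and 8.50 CPM without and 3.91, 1.58 and 2.75 CPM with it, with no overlap (-2.40 ± 0.52, fell by voom), which is 18.9% of the level without the inhibitor.

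Among basal genes TP63, the master factor of stratified epithelia (-0.32 ± 0.09), the keratin KRT15 (-0.27 ± 0.07), DST, a hemidesmosome linker (-0.47 ± 0.10), and SNAI2, a repressor of epithelial genes (-0.46 ± 0.09), fell by DESeq2. The whole basal list had 14 of 27 tested members above 0 with a median of 0.05. By DESeq2 4 of its members fell (15.4%, against 4.53% of all genes) and 1 rose (3.85%, against 4.91%). SOX15, which rose by voom, is also on the basal list. Notch signalling, which starts keratinocyte differentiation, had 24 of 29 tested members below 0 with a median of -0.15, and 5 fell (20.0%, against 4.53% of all genes) and 1 rose (4%, against 4.91%) by DESeq2. HEY1, a Notch target and repressor, fell by voom from 6.38, 1.805 and 2.22 CPM to 2.39, 0.911 and 1.36 CPM (-1.03 ± 0.20). HES1, a second target, stood at -0.41 ± 0.11, the receptor NOTCH1 at -0.42 ± 0.14 and the ligand JAG1 at -0.35 ± 0.11, all of which fell by DESeq2. The Notch median was negative in each pair, at -0.32, -0.18 and -0.04, and -0.08 without replicate 1.

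Cell cycle genes divided by phase. Of 50 S phase genes 44 were positive with a median of 0.13, and of 58 G2 and M phase genes 52 were negative with a median of -0.14. CCNE1, cyclin E1, was at 9.65, 12.1 and 11.8 CPM without and 14.5, 16.9 and 14.6 CPM with the inhibitor, with no overlap (0.46 ± 0.09), and it rose by DESeq2 with CDT1, a licensing factor of replication origins (0.39 ± 0.10). CENPF, a kinetochore protein, was at 171, 182 and 139 CPM and 97.0, 135 and 121 CPM (-0.47 ± 0.11), and it fell by DESeq2 with TOP2A, which untangles sister chromatids (-0.35 ± 0.10), and MKI67, the Ki-67 protein (-0.41 ± 0.13). The S phase median was positive in each pair (0.29, 0.12 and 0.04), while the G2 and M phase median was -0.39, 0.002 and -0.06. Without replicate 1 they were 0.07 and -0.03. By DESeq2 3 S phase genes rose (6%, against 4.91% of all genes) and 7 of G2 and M phase fell (12.1%, against 4.53%).

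Cytosolic ribosomal protein genes had 68 of 75 tested members above 0 with a median of 0.10, and 14 rose (18.7%, against 4.91% of all genes) and 0 fell by DESeq2. Their pair medians were 0.16, -0.003 and 0.17, and the median was 0.07 without replicate 1. RPS29 was the member with the smallest p, at 125, 184 and 162 CPM without and 180, 195 and 214 CPM with the inhibitor (0.35 ± 0.09). Nuclear genes of oxidative phosphorylation had 43 of 58 above 0 with a median of 0.08 (0.04 without replicate 1), and ATP5D, a subunit of the ATP synthase, rose by DESeq2 from 112, 150 and 140 CPM to 155, 171 and 182 CPM (0.35 ± 0.07). By DESeq2 6 genes of the oxidative phosphorylation list rose (10.3%, against 4.91% of all genes) and 0 fell. Many transcripts of both lists are short. The correction for length and GC content moved the ribosomal median to 0.06 (55 of 75 above 0) and that of oxidative phosphorylation to 0.04 (34 of 58). The 13 mitochondrially encoded genes had medians of -0.33, 0.25 and 0.46 in the 3 pairs, in different directions.

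Lists of sterol, oxygen and glucose metabolism were negative mainly in pair 1. Cholesterol synthesis and uptake had 21 of 25 tested members below 0 and a median of -0.22, with pair medians of -0.43, -0.10 and 0.02. Its median was -0.04 without replicate 1 and -0.07 without LPA-to-soft 1. Of its members 0 were called by DESeq2 or voom, and 5 stood below an unadjusted p of 0.05 in edgeR. Hypoxia and glycolysis genes had 36 of 45 below 0 and a median of -0.16, with pair medians of -0.53, -0.06 and 0.09. The median was 0.02 without replicate 1 and -0.009 without LPA-to-soft 1, so it rested on that control library. The mean log2 CPM of this list was 6.69, 5.97 and 6.16 in LPA-to-soft 1, 2 and 3. In LPA-to-FAKi 1, 2 and 3 it was 5.89, 5.87 and 6.24. PFKFB3, which sets the rate of glycolysis, fell by DESeq2 at -0.38 ± 0.09. By DESeq2 3 genes of the hypoxia and glycolysis list fell (6.67%, against 4.53% of all genes) and 0 rose.

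**Figure D3:**
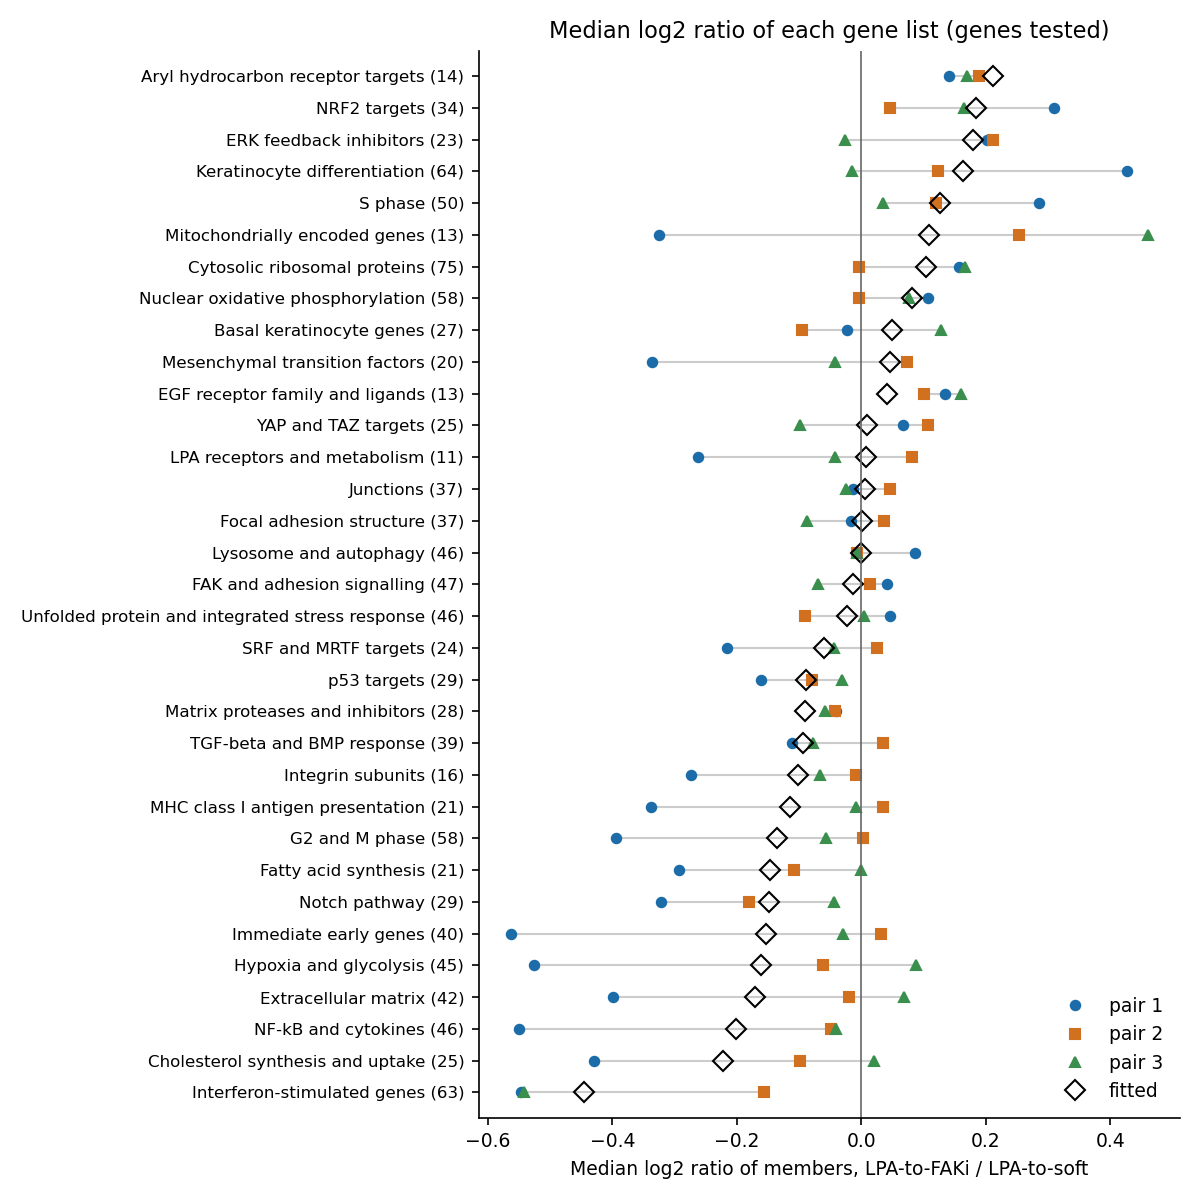
Median log2 ratio of LPA-to-FAKi to LPA-to-soft (horizontal axis) over the tested members of 33 gene lists (vertical axis, number tested in parentheses). Coloured symbols are the 3 replicate pairs, from log2 CPM with a prior count of 2, and diamonds the edgeR fit. The interferon list is lowest at -0.45, and several lists, such as NF-kB and cytokines, have a pair 1 value far below those of pairs 2 and 3.

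The remaining genes of smallest p on the lower side belong to no single list. LIFR, the receptor of leukaemia inhibitory factor, was at 13.3, 11.9 and 15.9 CPM without and 6.60, 7.77 and 8.96 CPM with the inhibitor, with no overlap (-0.82 ± 0.13, fell by voom). NGFR, the p75 neurotrophin receptor, was at 49.8, 36.0 and 55.2 CPM and 12.5, 14.0 and 37.8 CPM (-1.25 ± 0.22, fell by voom), and replicate 3 with the inhibitor lay above replicate 2 without it. PRODH, which starts proline breakdown in mitochondria, was at 43.8, 12.3 and 24.2 CPM and 14.3, 6.15 and 17.4 CPM (-1.004 ± 0.17, fell by voom). All 3 were lower in every pair, where 45.1% of all genes had the same sign in the 3 pairs.

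ATP13A4, a P5-type ATPase, fell by voom at -1.87 ± 0.29 from a low level of 6.45, 0.768 and 1.30 CPM. The long noncoding RNA MALAT1 fell by voom from 433, 133 and 110 CPM to 247, 90.4 and 69.4 CPM (-0.69 ± 0.11), and HIPK3, a nuclear kinase, from 87.8, 69.7 and 68.6 CPM to 58.6, 55.8 and 55.8 CPM with no overlap (-0.40 ± 0.07). DUOX2, an oxidase that makes hydrogen peroxide, and CLCA4 also fell by voom, at -1.07 ± 0.22 and -1.40 ± 0.43, the latter with 12.7 CPM in LPA-to-soft 1 and at most 2.47 CPM in the other 5 libraries. PPFIBP2 (-0.79 ± 0.14) and RAG1 (-0.41 ± 0.07) fell by DESeq2.

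A property of the transcripts ran through the comparison. Among 14870 genes with a matched transcript (96.3%), put in 5 equal groups by transcript length, the median log2 fold change was 0.08 in the group with the shortest transcripts, 0.05, 0.005 and -0.03 in the next ones, and -0.09 in the group with the longest. In 5 groups by GC content it went from -0.11 in the lowest through -0.04, 0.02 and 0.06 to 0.10 in the highest. Across genes, which are not independent replicates, Spearman's correlation of the log2 fold change was -0.22 with length and 0.29 with GC content. Genes higher at an unadjusted p under 0.05 had a median transcript of 2586 bases and 56.4% GC, and those lower 5163 bases and 42.6%. The gradients had the same direction in each pair. In the group of lowest GC content DESeq2 called 10 genes higher and 270 lower, and in the highest 286 and 39. Among the shortest transcripts it called 216 higher and 39 lower, and among the longest 34 and 276. The shares of all genes given beside the lists take no account of this. The part of the gradients in the results above was not tested. With the correction edgeR called 0 genes, 2601 had an unadjusted p under 0.05, and the lowest adjusted p was 0.109.

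**Figure D4:**
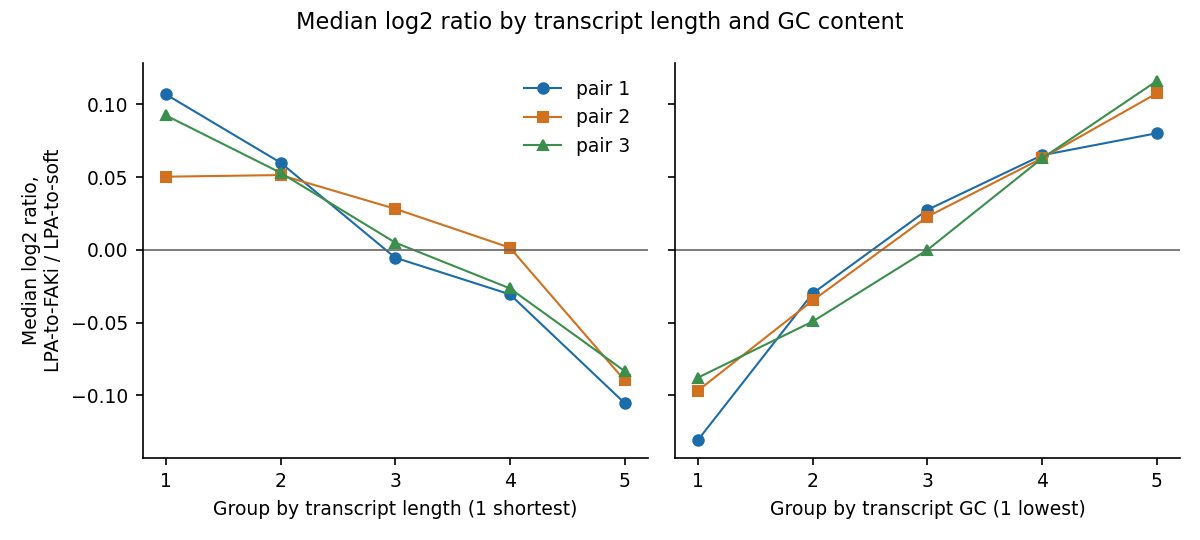
Median log2 ratio of LPA-to-FAKi to LPA-to-soft (vertical axis) in 5 groups of 2974 genes by transcript length (left) and by transcript GC content (right), for each replicate pair. In all 3 pairs the ratio goes down with length and up with GC content.

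The inhibited cells were also compared with soft-to-soft cells, to which no LPA had been added. In LPA-to-FAKi against soft-to-soft edgeR called 87 genes (0.564%), 24 higher and 63 lower, and in LPA-to-soft against soft-to-soft 0 (0%), where DESeq2 called 82, voom called 0 and 1231 genes had an unadjusted p under 0.05 in edgeR. These comparisons share libraries with each other and with the main one, and soft-to-soft 1 and 2 differ from the other 10 libraries in their low counts: 42.9% and 42.2% of their counts from 1 to 19 were even, beside 96.8% to 97.8% elsewhere. Without these 2 libraries only soft-to-soft 3 is left in its group, so a refit cannot tell whether the 87 calls depend on their low counts. IFIT1 stood at 50.4, 45.2 and 190 CPM in soft-to-soft, and its log2 fold change was -1.27 in LPA-to-FAKi against soft-to-soft and -0.20 in LPA-to-soft against soft-to-soft. The same pair of values was 0.74 and -0.16 for SLC38A5, 1.35 and -0.27 for CYP1A1, -1.30 and -0.05 for NGFR, and -3.38 and -0.98 for KRT1, and the first of each pair was called by edgeR. FN1 was different, at 0.14 and 0.72, and TNS3 at -0.15 and 0.27, none of them called. The interferon list had medians of -0.45 and -0.03 in these 2 comparisons.

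The effect of the inhibitor was also compared with that of 5 days on a stiff gel (stiff-to-soft against soft-to-soft), which shares no library with it. Both were measured after 1 day on the same soft gel. In the stiff comparison edgeR called 90 genes (0.583%), 37 higher and 53 lower. In the FAK inhibitor comparison 62 of these 90 had the same sign and 28 the opposite sign. The share of all genes with the same sign in both comparisons was not computed. Of the 90, 24 were called by DESeq2 and 2 by voom in the FAK inhibitor comparison. Over all genes DESeq2 called 1231 of 13042 there and voom 37 of 15437. The difference between the effects was tested in the same model and was called by edgeR for 7 genes (0.0453%), 5 with the higher value under the inhibitor and 2 with the lower.

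FN1 had the clearest opposition. It stood at 50.6, 75.8 and 124 CPM in soft-to-soft and 90.4, 173 and 248 CPM in stiff-to-soft (log2 1.005 ± 0.10), against -0.58 ± 0.10 for the inhibitor, a difference of -1.58 ± 0.15 (edgeR adjusted p = 0.004). TNS3 differed by -0.71 ± 0.09 (adjusted p = 0.029 by edgeR). On the other side THBD was -0.48 ± 0.05 in the stiff comparison and 0.31 ± 0.05 with the inhibitor, a difference of 0.78 ± 0.08 (edgeR adjusted p = 0.004). HBEGF (difference 0.75 ± 0.10) and EREG (0.78 ± 0.10) had negative values after stiff conditioning and positive ones with the inhibitor. So did SPRR2A, a cornified envelope gene (1.63 ± 0.22), and TMPRSS11D, an airway-type serine protease (1.40 ± 0.20). IFIT1, in contrast, was negative in both, at -1.07 and -0.64, and its difference of -0.44 ± 0.26 was not called. Without soft-to-soft 1 and 2, and without replicate number in the model, 0 differences were called.

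**Figure D5:**
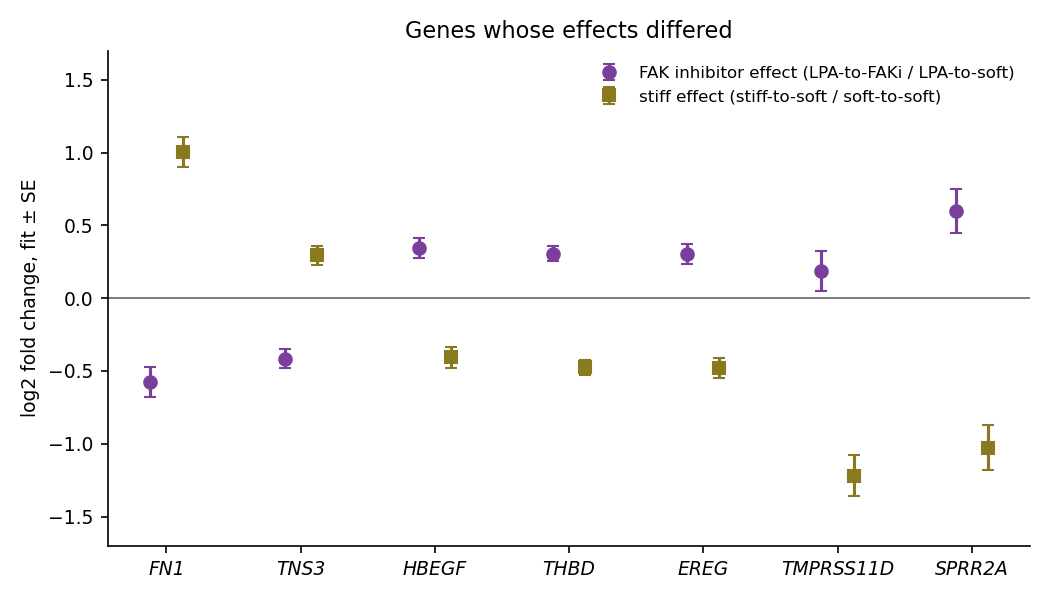
Log2 fold changes ± SE from edgeR (vertical axis) for the 7 genes whose effects differed (horizontal axis), for the FAK inhibitor (circles) and for stiff conditioning (squares). In each gene the effects lie on opposite sides of 0, from FN1 at -0.58 and 1.005 to SPRR2A at 0.60 and -1.03.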

How the data were processed

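RNA from 12 Cal27 samples was sequenced with a stranded TruSeq kit, per the labels. The authors deposited raw read counts by gene symbol, and these counts were the only values tested. A deposited table of log2 normalized values was not used. Cutadapt, FastQC, STAR, HTSeq and DESeq2, with no versions, and the build hg19 are named in the submitters' processing notes. The strand setting is not given in the sources used here, so overlapping and antisense genes cannot be told apart. Total counts set the counting error only. In 10 libraries nearly all low counts were even, so a count there may not be 1 fragment.

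Counts were tested with edgeR 4.0.16 (R 4.3.3, TMM scaling, filterByExpr, quasi-likelihood F test, Benjamini-Hochberg threshold 0.05), with 4 conditions and replicate number as a block. DESeq2 1.42.0 and voom of limma 3.58.1 were alternatives. The fits were also run on simulated counts drawn with edgeR's estimates of the spread, and the outcome is not given here. Those counts lack the even low counts of 10 libraries, so the run cannot decide between the tools. Same-numbered LPA-to-FAKi and LPA-to-soft libraries correlated after condition means were removed (r = 0.445, 0.401 and 0.449), and different numbers correlated from -0.435 to -0.012. Removing the means pushes the values of different numbers below 0 when those of the same number lie above it. The second range is therefore no separate support for the pairing. The numbers come from the labels. Symbols turned into dates (28, with 0.178% of the counts) were kept out of the gene lists.

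Named genes are the 15 of smallest p and at least 1 CPM in each direction, since edgeR called none, PTK2, PTK2B and up to 4 members of smallest p per list. Some genes and 1 list are not reported here. The lists and the comparison were chosen with earlier results of these data known. Other genes, among them further interferon genes, voom genes, AKR1B10, NQO1, CYP1B1, ALDH1A3, TXN, TFEB, NOTCH1, MKI67, LRIG1, GRB7, PXN, BCAR1, MX1, ISG15, SPRR2A and TMPRSS11D, were chosen after their values were seen.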

Additional observations from a re-analysis of the deposited data

How the results depend on the processing

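Without the replicate block edgeR called 0 genes between LPA-to-FAKi and LPA-to-soft, with 838 at an unadjusted p under 0.05, and 0 genes in LPA-to-FAKi against soft-to-soft and in the difference of effects. With the block, 0 genes were called in the first comparison with RLE scaling, with at least 1 CPM in 3 libraries, in the 6 libraries alone and with the length and GC correction, which was chosen after seeing the data. DESeq2 called 1231 (640 higher, 591 lower), voom 37 (21 and 16), the fit with no filter 25 (10 and 15), and the fit without soft-to-soft 1 and 2 202 (87 and 115). Leaving out libraries gave 0 to 62 calls (0 to 34 higher, 0 to 28 lower), with 62 without LPA-to-FAKi 3, 5 without replicate 2, and 1 each without LPA-to-soft 2 and LPA-to-FAKi 2. Against soft-to-soft, the 87 calls of LPA-to-FAKi became 704 with DESeq2, 176 with voom, 206 with no filter, and 0 to 211 when a library or a replicate number was left out. Leaving soft-to-soft 1 and 2 out keeps only soft-to-soft 3 in that group, so calls that involve it are not given for that setting. The 0 calls of LPA-to-soft became 82 with DESeq2 and 0 to 1 on leaving out libraries. The 7 differences of effects became 346 with DESeq2, 32 with voom, 41 with no filter, and 0 to 23 on leaving out libraries. The cause was not tested. Of the values of named genes under these settings, 0 changed sign, 1735 stayed on their side of the threshold and 245 passed it where edgeR had not. Most of these genes were chosen by their p or values in the same counts, and the settings share libraries. The tally is therefore no independent support for them.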
